A study of Homo sapiens with 6 samples.

Results

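The genes described here encode proteins of the spliceosome and RNA-binding splicing factors. They were taken by symbol from the authors' deposited table of one comparison: every listed gene whose symbol begins with SNRP, LSM, SF3A, SF3B, PRPF, HNRNP or SRSF, without hyphenated symbols and without symbols that end in P and a digit. This gave 60 of the 6831 listed genes. The cells were MOLM-13, an established cell line from human acute myeloid leukaemia that the labels give as wild type, kept for 24 h either with the solvent DMSO or with DEG-35 at 50 nM. DEG-35 is described by the study as a degrader of 2 proteins, IKZF2 and CK1α. Each of the 2 groups had 3 RNA-seq libraries, and no label ties them to separate cultures. The spread behind the p-values may therefore be technical only. The table is limited to genes whose adjusted p was under 0.05, with 3 values per gene: the log2 fold change, p and adjusted p. It holds no value for a single library, no expression level and no depth. Its header does not name the numerator, so values were read as DEG-35 over DMSO, and each direction below would turn round under the other reading. Errors are standard errors (SE) that follow from the fold change and p of a gene.

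The spliceosome removes introns from pre-mRNA. Small nuclear ribonucleoproteins (snRNPs) carry a ring of Sm proteins, or of LSM proteins in the case of U6, around their RNA. The U1 snRNP recognises the start of the intron, the U2 snRNP with its SF3A and SF3B complexes holds the branch site, and the PRPF proteins belong mainly to the tri-snRNP and to the complex that activates the spliceosome. SR proteins (SRSF) and heterogeneous nuclear ribonucleoproteins (HNRNP) bind the transcript and steer which splice sites are used, often in opposite directions. Genes of splicing factors, SRSF2 and SF3B1 among them, are recurrently mutated in myeloid neoplasms.

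Splicing factor genes were lower with DEG-35 in 55 of 60 cases and higher in 5, by modest amounts. The median log2 fold change over the 60 genes was -0.41 in the authors' deposited table, against -0.19 over all its genes. SNRPB, which encodes a core Sm protein, had the lowest value, 1.89-fold lower (log2 fold change -0.92 ± 0.0739, implied SE), and SRSF8, an SR protein gene, the highest, 1.60-fold higher (0.68 ± 0.105), in the authors' deposited table. No splicing factor gene reached an absolute log2 fold change of 1. Of the 6831 listed genes 1251 did, which is 8.30% of all 15064 genes tested by the authors. Sizes of genes that are not listed are unknown. The 15064 is the number of tests that the adjusted p-values imply. In bulk RNA, fewer cells of a type and less of an RNA per cell cannot be told apart.

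Of all genes tested, 45.3% were listed, 24.0% as lower and 21.4% as higher. The human RefSeq annotation holds 86 protein-coding genes under the same symbol rule, of which 69.8% were listed, 64.0% as lower and 5.81% as higher. Being listed is part of how the 60 genes were chosen, so the share listed is a description. Here and below, shares of annotated genes or of lists stand beside shares of tested genes. How many of the annotated genes were tested is not known, so the bases differ. The 26 that are not in the authors' deposited table did not pass, were not tested or are not analysed here, and which of these holds cannot be told. They include HNRNPH2, HNRNPLL, LSM1, LSM2, PRPF3, PRPF6, SF3B5, SNRPB2, SRSF5 and SRSF11. Among them are HNRNPA1, which encodes one of the most abundant RNA-binding proteins of the nucleus, and PRPF8, whose product forms the core of the catalytic centre.

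The falls were narrow in size. Of the 55 lower genes, 18 fell by at least 0.5 on the log2 scale, 21 by between 0.3 and 0.5, and 16 by less than 0.3. The 18 are 32.7% of the lower splicing factor genes, against 44.1% of all 3613 lower listed genes. They are 20.9% of the 86 annotated genes, and all listed genes that fell by as much are 10.6% of all tested genes. In the ranking of all listed genes by log2 fold change 22 of the 60 lay in the lowest 25% and 1 in the lowest 10%. An adjusted p below 0.01 was reached by 50 of the 60. The scaling of the libraries matters for changes of this size: were every value raised by 0.3 on the log2 scale, 39 of the 60 would be lower and 21 higher. The 95% intervals of 10 genes overlapped that of SNRPB. Such overlap is not a test of a difference, and the order among the largest falls was not tested.

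**Figure D1:**
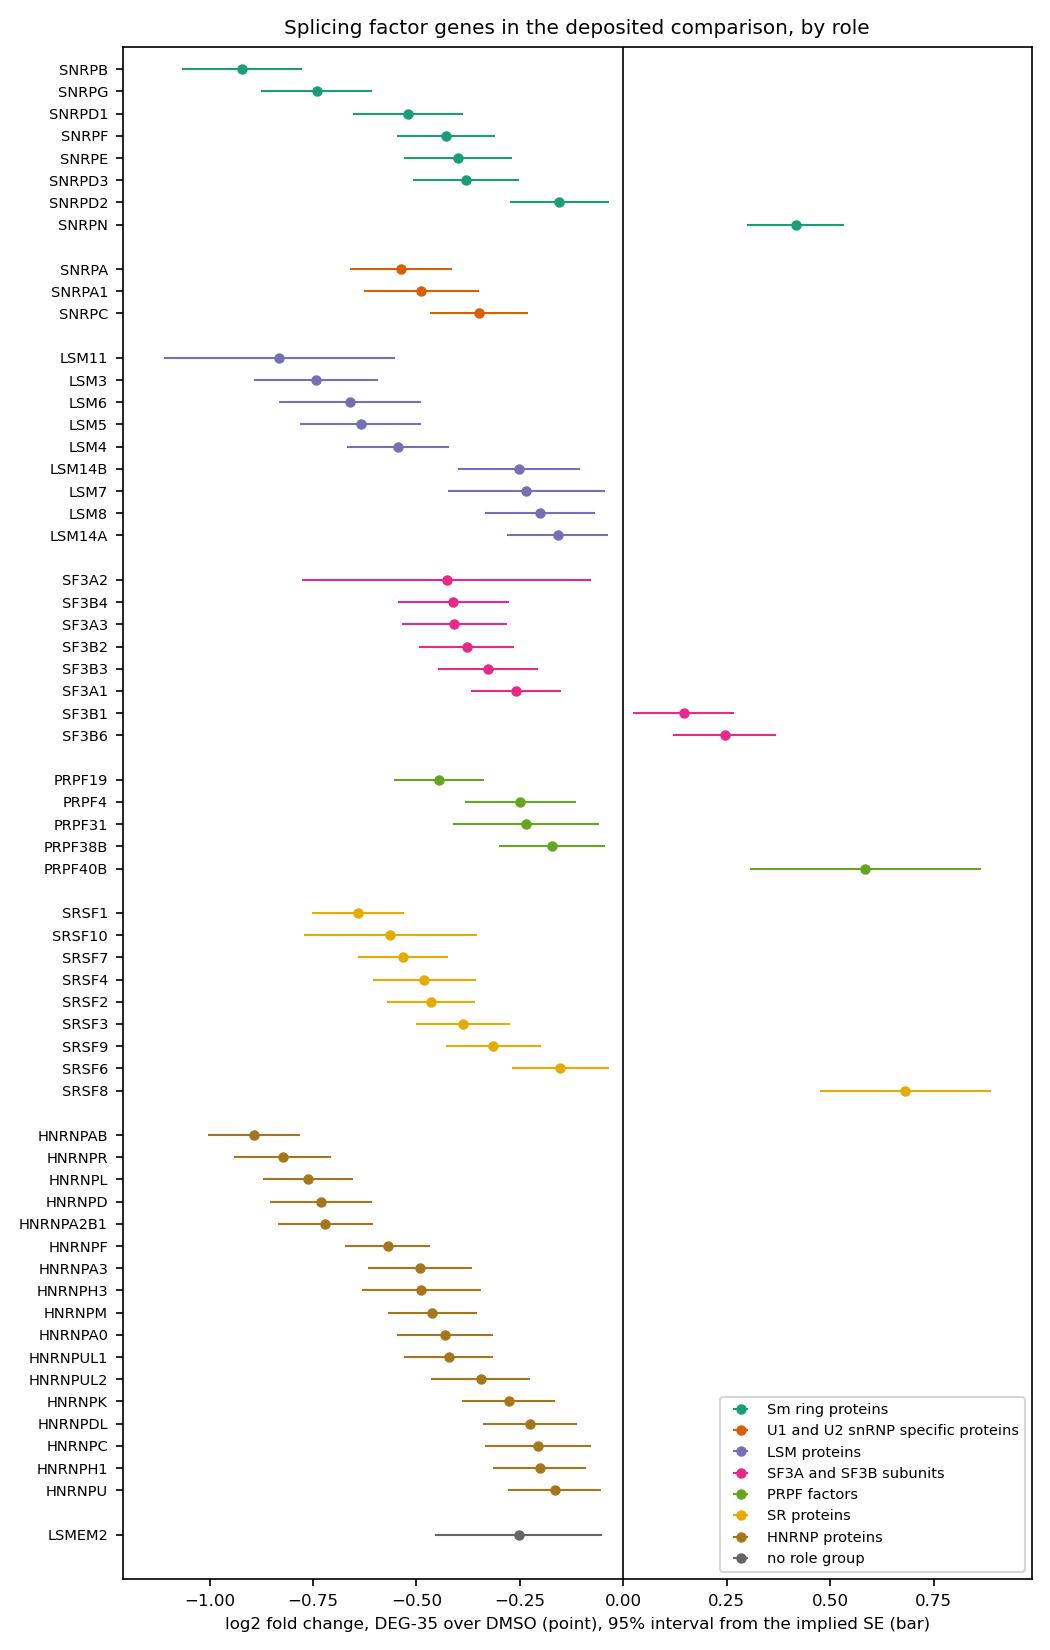
Log2 fold change (horizontal axis, DEG-35 over DMSO) of each of the 60 genes, grouped by role and colour. Points are the deposited values and bars are 95% intervals from the implied SE. All but 5 points (SNRPN, SF3B1, SF3B6, PRPF40B and SRSF8) lie left of 0, between -0.92 and -0.15.

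Of the genes for Sm proteins, the ring around the U1, U2, U4 and U5 RNAs, all 8 were listed and 7 fell, with -0.41 as the median. SNRPB, for SmB and its splice form SmB', stood at -0.92 ± 0.0739 (adjusted p = 3.60e-34 in the authors' deposited table). SNRPG, for the smallest ring protein, fell 1.67-fold, with a log2 fold change of -0.74 ± 0.0684 in the authors' deposited table. The other ring genes fell less. SNRPD1 stood at -0.52 ± 0.0679 in the authors' deposited table. SNRPF, at -0.43 ± 0.0609, SNRPE, at -0.40 ± 0.0666, and SNRPD3, at -0.38 ± 0.0652, lay within 1 SE of each other in the authors' deposited table. SNRPD2, whose product pairs with that of SNRPD1 in the ring, stood at -0.15 ± 0.0614 in the authors' deposited table. The 7 proteins join in 1 ring, yet the intervals of SNRPB and SNRPD2 lie apart, with -0.78 as the upper bound of the first and -0.28 as the lower bound of the second.

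SNRPN went the other way. It encodes SmN, a close relative of SmB, from an imprinted locus, and rose by 0.42 ± 0.0596 on the log2 scale (adjusted p = 2.55e-11 in the authors' deposited table). SNRPN and SNURF are read from 1 shared transcript, and SNURF was listed in the authors' deposited table with a log2 fold change of 0.42 as well (adjusted p = 2.54e-11), so the 2 entries are not independent. SRSF8, a retrotransposed copy of SRSF2, rose by 0.68 ± 0.105 while SRSF2 stood at -0.47 ± 0.0543 in the authors' deposited table. Coding sequences of both pairs are shown because each holds a gene that rose beside a close relative that fell. Capitals mark the bases that differ within the first 90 coding bases (GENCODE release 29, ungapped).

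SNRPB: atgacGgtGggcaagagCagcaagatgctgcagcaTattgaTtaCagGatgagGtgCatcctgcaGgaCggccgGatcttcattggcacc
SNRPN: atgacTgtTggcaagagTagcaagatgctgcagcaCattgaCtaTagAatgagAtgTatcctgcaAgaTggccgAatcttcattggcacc
SRSF2: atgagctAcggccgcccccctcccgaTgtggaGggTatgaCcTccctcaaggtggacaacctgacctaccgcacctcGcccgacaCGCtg
SRSF8: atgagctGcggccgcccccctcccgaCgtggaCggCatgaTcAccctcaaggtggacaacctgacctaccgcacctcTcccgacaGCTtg

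The first pair differs at 12 of these 90 bases and the second at 10. Over the aligned coding sequence SNRPB and SNRPN were identical at 591 of 720 bases (82.1%) and SRSF2 and SRSF8 at 554 of 654 (84.7%). Neither pair shared a single run of 50 identical bases there. Untranslated parts were not compared, and the sources used here give neither the read length nor the treatment of reads with several matches.

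The 3 listed genes for proteins specific to U1 and U2 were all lower. SNRPA, for an RNA-binding protein of U1, stood at -0.54 ± 0.0625 and SNRPC, for the zinc-finger protein of U1, at -0.35 ± 0.0604 in the authors' deposited table. SNRPA1, for a U2 protein, stood at -0.49 ± 0.0709 in the authors' deposited table, and SNRPB2, for its partner in U2, was not listed.

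LSM genes had the lowest median of the 7 role groups, -0.54, with 9 of 13 listed and all 9 lower. LSM2 to LSM8 form the ring on U6, and LSM1 replaces LSM8 in the ring that acts in cytoplasmic mRNA decay. Of the ring members common to both, LSM3 stood at -0.74 ± 0.0759, LSM6 at -0.66 ± 0.0873 and LSM5 at -0.64 ± 0.0742 in the authors' deposited table. LSM4 stood at -0.54 ± 0.0629 and LSM7 at -0.23 ± 0.0971 in the authors' deposited table. The intervals of LSM3, LSM6 and LSM5 lie wholly below that of LSM7, whose lower bound is -0.42, and the interval of LSM4 meets it. LSM8, the member found only in the nuclear ring, stood at -0.20 ± 0.0679 in the authors' deposited table. LSM1 and LSM2 were not listed. LSM11, part of the U7 snRNP that processes histone mRNA ends, fell by 0.83 ± 0.142 on the log2 scale in the authors' deposited table, and its partner LSM10 was not listed. LSM14A and LSM14B, for proteins of cytoplasmic RNA granules, had small values, -0.16 ± 0.0619 and -0.25 ± 0.0749 in the authors' deposited table. LSMEM2, a membrane protein gene that the symbol rule also takes, has no known part in splicing and stood at -0.25 ± 0.103 in the authors' deposited table.

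Of 9 SF3A and SF3B genes 8 were listed, 6 lower and 2 higher. The 3 SF3A genes were lower, with SF3A3 at -0.41 ± 0.0652, SF3A1 at -0.26 ± 0.0560 and SF3A2, the least precisely measured of the 60, at -0.43 ± 0.178 in the authors' deposited table. SF3B2, which had the smallest adjusted p of the group (6.27e-10), stood at -0.38 ± 0.0582, SF3B4 at -0.41 ± 0.0680 and SF3B3 at -0.33 ± 0.0619 in the authors' deposited table. SF3B1, the large scaffold subunit, and SF3B6, the subunit that touches the branch point, were the exceptions. SF3B1 stood at 0.15 ± 0.0617 with an adjusted p of 0.0418, near the threshold, in the authors' deposited table. SF3B6 rose by 0.25 ± 0.0636 (adjusted p = 4.30e-04 in the authors' deposited table). Both would turn negative if each value were lowered by 0.3.

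Of the 7 role groups, the PRPF genes were listed least often. Among 12 annotated under these symbols 5 were listed (41.7%, against 45.3% of all tested genes). This share is not above that of all tested genes, though how many of the 12 were tested is not known. PRPF19, for the ubiquitin ligase that activates the spliceosome, stood at -0.45 ± 0.0557 (adjusted p = 1.55e-14 in the authors' deposited table). The tri-snRNP genes PRPF4, at -0.25 ± 0.0690, and PRPF31, at -0.24 ± 0.0902, fell less in the authors' deposited table, as did PRPF38B at -0.17 ± 0.0650. PRPF40B, for a U1-associated protein, rose by 0.58 ± 0.142 in the authors' deposited table. The tri-snRNP genes PRPF3, PRPF6 and PRPF8 were not listed.

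SR protein genes fell in 8 of 9 listed cases, of 12 in all, with a median of -0.47. SRSF1, the founding member and a regulator of many alternative exons, fell 1.56-fold, with a log2 fold change of -0.64 ± 0.0569 (adjusted p = 5.16e-28 in the authors' deposited table). SRSF10, whose product represses splicing when dephosphorylated, stood at -0.56 ± 0.107 in the authors' deposited table. SRSF7 followed at -0.53 ± 0.0554, SRSF4 at -0.48 ± 0.0634 and SRSF2 at -0.47 ± 0.0543 in the authors' deposited table. SRSF3, which also acts in mRNA export, stood at -0.39 ± 0.0583, SRSF9 at -0.31 ± 0.0586 and SRSF6 at -0.15 ± 0.0600 in the authors' deposited table. The value of SRSF6 lies closest to 0 of the 9. SR proteins are known to control their own mRNA through exons that lead to nonsense-mediated decay. GENCODE annotates a transcript of that type for all 9 listed SR genes, against 33 of the 60 splicing factor genes (55.0%) and 44.4% of the 6067 listed protein-coding genes found in the annotation. The deposited values are per gene and do not tell productive from unproductive transcripts.

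HNRNP genes were the largest role group in which every listed gene was lower: 17 of 17, out of 26 annotated under these symbols, around a median of -0.46. HNRNPAB stood at -0.89 ± 0.0565 and had the smallest adjusted p of all 60 genes (2.24e-54 in the authors' deposited table). HNRNPR stood at -0.82 ± 0.0599 and HNRNPL, for a regulator that binds CA repeats, at -0.76 ± 0.0552 in the authors' deposited table. HNRNPD, for a binder of AU-rich elements, stood at -0.73 ± 0.0627 and HNRNPA2B1 at -0.72 ± 0.0585 in the authors' deposited table. These 5 form the lower end of the group, and their intervals overlap. HNRNPF stood at -0.57 ± 0.0524, and HNRNPA3, HNRNPH3, HNRNPM, HNRNPA0, HNRNPUL1 and HNRNPUL2 lay between -0.49 and -0.34 in the authors' deposited table. The smallest falls began with HNRNPK, for a protein that binds C-rich RNA, at -0.28 ± 0.0576 in the authors' deposited table. HNRNPDL stood at -0.23 ± 0.0583 and HNRNPC, whose product keeps Alu-derived exons out of mRNA, at -0.21 ± 0.0658 in the authors' deposited table. HNRNPH1 stood at -0.20 ± 0.0570 and HNRNPU, for a protein of the nuclear scaffold, at -0.17 ± 0.0576 in the authors' deposited table. These last 5 would turn positive if each value were raised by 0.3.

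Some of the 60 genes share transcribed sequence with others, and the sources used here do not say if counting used the strand. The read-through entry HNRNPUL2-BSCL2 stood at -0.30, beside -0.34 for HNRNPUL2, in the authors' deposited table. GGT1 overlaps an exon of SNRPD3 on the same strand and was higher at 0.91, beside -0.38 for SNRPD3, in the authors' deposited table. Counting by strand would not separate reads that fall within the stretch such same-strand pairs share. By GENCODE, 23 of the 60 genes have an exon overlapped by a gene on the opposite strand. The share of other genes with such an overlap was not counted. In 8 of the 23 the partner is listed too, beside 45.3% of all tested genes. How many of the partners were tested is not known. HNRNPAB overlaps PHYKPL, which was higher at 0.88, and LSM3 overlaps the DNA repair gene XPC, which was higher at 1.13, in the authors' deposited table. In these 2 pairs the partner moved opposite to the splicing factor gene. In the other 6 the partner was lower too: CBX3, beside HNRNPA2B1, stood at -0.38, RUFY2, beside HNRNPH3, at -0.38 and GUCD1, beside SNRPD3, at -0.51 in the authors' deposited table. CDC26, beside PRPF4, stood at -0.44, PLEKHJ1, beside SF3A2, at -0.45 and IFRD2, beside LSMEM2, at -0.29 in the authors' deposited table. Of all listed genes 52.9% were lower. Reads within the stretches that the opposite-strand pairs share cannot be told apart if counting ignored the strand. The lengths of the shared stretches were not measured. Retrotransposed copies are also common: 33 of the 60 have at least 1 RefSeq pseudogene under their own symbol, up to 20 each for SNRPG and SNRPC. The median was -0.45 for these 33 and -0.33 for the other 27, whose log2 fold changes were lower in 23 cases.

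The promoters of the lower genes were searched for short words known from the binding sites of E2F, NF-Y, MYC and the DREAM complex, regulators of growth and cell cycle genes. RefSeq promoter windows (GRCh38.p14, 250 bases before to 50 after a start site) were found for 55 of the 60 genes, 78 windows in all, since genes can have several start sites. Windows of 3 genes are shown, without the bases after the start site, as the lowest log2 fold changes among those with the word GCGGGAA, a short E2F-type word, or its reverse complement TTCCCGC, before the start. Capitals mark the word, and each sequence runs 5′ to 3′ on the strand of the gene.

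HNRNPL, chr19:38852348-38852597, minus strand: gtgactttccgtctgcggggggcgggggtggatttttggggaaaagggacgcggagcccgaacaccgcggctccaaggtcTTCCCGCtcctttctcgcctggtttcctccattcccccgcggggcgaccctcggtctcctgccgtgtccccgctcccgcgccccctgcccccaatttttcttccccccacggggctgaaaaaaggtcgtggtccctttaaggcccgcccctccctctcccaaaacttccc
LSM3, chr3:14178567-14178816, plus strand: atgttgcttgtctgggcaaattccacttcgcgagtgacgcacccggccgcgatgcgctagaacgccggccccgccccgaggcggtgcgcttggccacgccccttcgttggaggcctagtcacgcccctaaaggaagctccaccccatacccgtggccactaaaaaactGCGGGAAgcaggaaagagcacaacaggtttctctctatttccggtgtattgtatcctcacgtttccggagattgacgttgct
HNRNPA2B1, chr7:26200747-26200996, minus strand: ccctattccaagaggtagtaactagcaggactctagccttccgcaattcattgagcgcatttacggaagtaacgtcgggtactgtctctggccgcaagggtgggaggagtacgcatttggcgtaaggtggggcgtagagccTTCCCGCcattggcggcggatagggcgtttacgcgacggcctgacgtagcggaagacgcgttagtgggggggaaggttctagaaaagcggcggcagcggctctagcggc

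GCGGGAA, on either strand, stood in 15 of 68 windows of lower splicing factor genes (22.1%), in 14.9% of the windows of all lower listed genes, in 5.87% of those of higher listed genes and in 6.55% of all 35116 windows. The 15 windows belong to 14 of 50 genes: SNRPB, HNRNPL, LSM3, HNRNPA2B1, HNRNPF, SRSF10, LSM4, SRSF4, HNRNPUL1, SNRPC, HNRNPK, SF3A1, HNRNPDL and HNRNPH1. Their log2 fold changes run from -0.92 to -0.20 in the authors' deposited table, over nearly the whole range of the falls. None of the 10 windows of the 5 higher splicing factor genes held it. At the 5.87% of higher listed genes, 10 windows are too few for this absence to say much. The longer E2F words TTTCGCGC and TTTGGCGC were in none of the 68 windows, and in 0.515% and 0.652% of all windows. Of the windows of all lower listed genes 1.31% and 1.94% held them. Words this rare can be missing from 68 windows, so their absence says little. TTTGGCGC was in 2 of the 10 windows of higher splicing factor genes, both of SF3B1. CCAAT was in 44.1% of the 68 against 34.6% of all, the E-box CACGTG in 11.8% against 7.26%, and the CHR word TTTGAA in 14.7% against 15.2%, with its variant TTCGAA in 1.47% against 1.45%. Of the windows of all lower listed genes 37.5% held CCAAT, 10.1% the E-box and 11.8% TTTGAA. For higher listed genes the shares were 33.2%, 8.16% and 11.1%. In the 10 windows of higher splicing factor genes CCAAT was in 4, the E-box in 2, TTTGAA in 0 and TTCGAA in 1. A match is a run of letters, not a measured binding site.

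**Figure D2:**
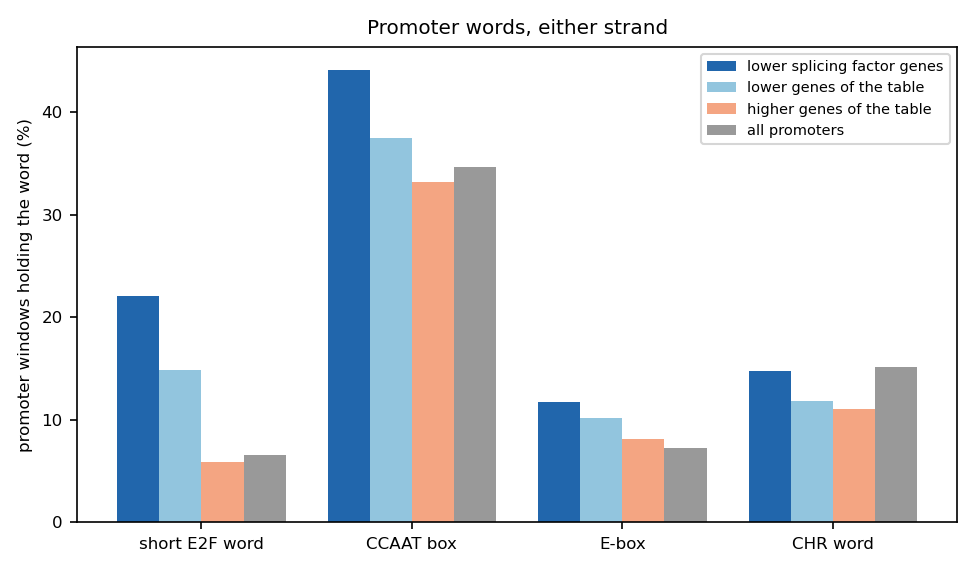
Share of promoter windows (vertical axis, %) that hold each of 4 words on either strand, for lower splicing factor genes (68 windows), all lower and all higher listed genes, and all promoters. The short E2F word is at 22.1% in the first set and 6.55% in the last, and the CHR word is at 14.7% and 15.2%.

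Other genes of the splicing pathway, taken from 10 lists, showed the same prevailing direction. Of 149 such genes outside the 60, 86 were listed (57.7%, against 45.3% of all tested genes), 72 lower and 14 higher, with a median of -0.32. All 7 SNRNP-named genes were listed and lower, with SNRNP48 at -0.65 ± 0.0789, SNRNP25 at -0.63 ± 0.0761 and SNRNP40 at -0.51 ± 0.0644 in the authors' deposited table. U2AF and branch site recognition had 9 of 12 genes listed, 7 lower. The helicase gene DDX46 stood at -0.86 ± 0.0660, DHX15 at -0.58 ± 0.0617, PHF5A, a partner of SF3B1, at -0.73 ± 0.0830 and U2AF1, for the reader of the 3′ splice site, at -0.45 ± 0.0583 in the authors' deposited table. ZRSR2, which recognises minor introns, was higher at 0.36 ± 0.132 in the authors' deposited table.

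Of 24 tri-snRNP and PRP19 complex genes 15 were listed and 14 lower. PPIH stood at -0.71 ± 0.0776, CD2BP2 at -0.46 ± 0.0731 and USP39 at -0.39 ± 0.0644 in the authors' deposited table. SYF2 alone was higher, at 0.44 ± 0.0737 in the authors' deposited table. Of the 9 catalytic step helicases and release factors only DHX8, at -0.18 ± 0.0651, and DHX38, at -0.16 ± 0.0679, were listed in the authors' deposited table, a share of 22.2%. For snRNP assembly 7 of 18 genes were listed (38.9%), all lower, led by GEMIN4 at -0.64 ± 0.0689, SART3 at -0.48 ± 0.0574 and TGS1 at -0.31 ± 0.0656 in the authors' deposited table. SMN1 and PRMT5 were not listed. The shares of both lists are under the 45.3% of all tested genes, though how many genes of these lists were tested is not known.

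The kinases that phosphorylate SR proteins were divided. SRPK1 stood at -0.43 ± 0.0642, while SRPK3 was higher at 0.72 ± 0.187 and SRPK2 at 0.31 ± 0.0832 in the authors' deposited table. None of CLK1 to CLK4 was listed. In the authors' deposited table the phosphatase regulator gene PPP1R8 stood at -0.27 ± 0.0655. The exon junction and mRNA export list had 14 of its 20 genes in the table, 12 lower, with the export adaptor ALYREF at -0.94 ± 0.0913 and MAGOHB at -0.92 ± 0.0810 in the authors' deposited table. The paralogous helicase genes DDX39A, at -0.90 ± 0.0721, and DDX39B, at 0.49 ± 0.175, moved apart in the authors' deposited table. Of 42 other splicing regulators 23 were listed, 19 lower, among them SFPQ at -0.59 ± 0.0607 and TRA2B at -0.52 ± 0.0593 in the authors' deposited table. CELF2 was higher, at 0.50 ± 0.0597, in the authors' deposited table, and RBM39 was not listed. The shares listed were 70.0% for the export list and 54.8% for the other regulators, against 45.3% of all tested genes.

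The minor spliceosome, which removes a rare class of introns, was evenly divided. Its list held 10 genes, of which 8 were in the authors' deposited table, 4 higher and 4 lower, with a median of 0.02. This is a share of 80.0% listed, against 45.3% of all tested genes (24.0% as lower and 21.4% as higher). The 3 SNRNP genes of this list and PDCD7 were lower, whereas SCNM1, at 0.33 ± 0.0672, RNPC3, at 0.28 ± 0.0913, ZRSR2 and CENATAC (under its older symbol CCDC84, 0.27 ± 0.0782) were higher in the authors' deposited table. Whether this list differs from the major spliceosome was not tested. Of 11 splicing factor genes recurrently mutated in myeloid neoplasms 8 were listed (72.7%, against 45.3% of all tested genes). Lower were 5 (SRSF2, U2AF1, U2AF2, LUC7L2 and SF3A1) and higher 3 (SF3B1, ZRSR2 and PRPF40B). SRSF2, SF3A1, SF3B1 and PRPF40B are among the 60 genes already described.

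**Figure D3:**
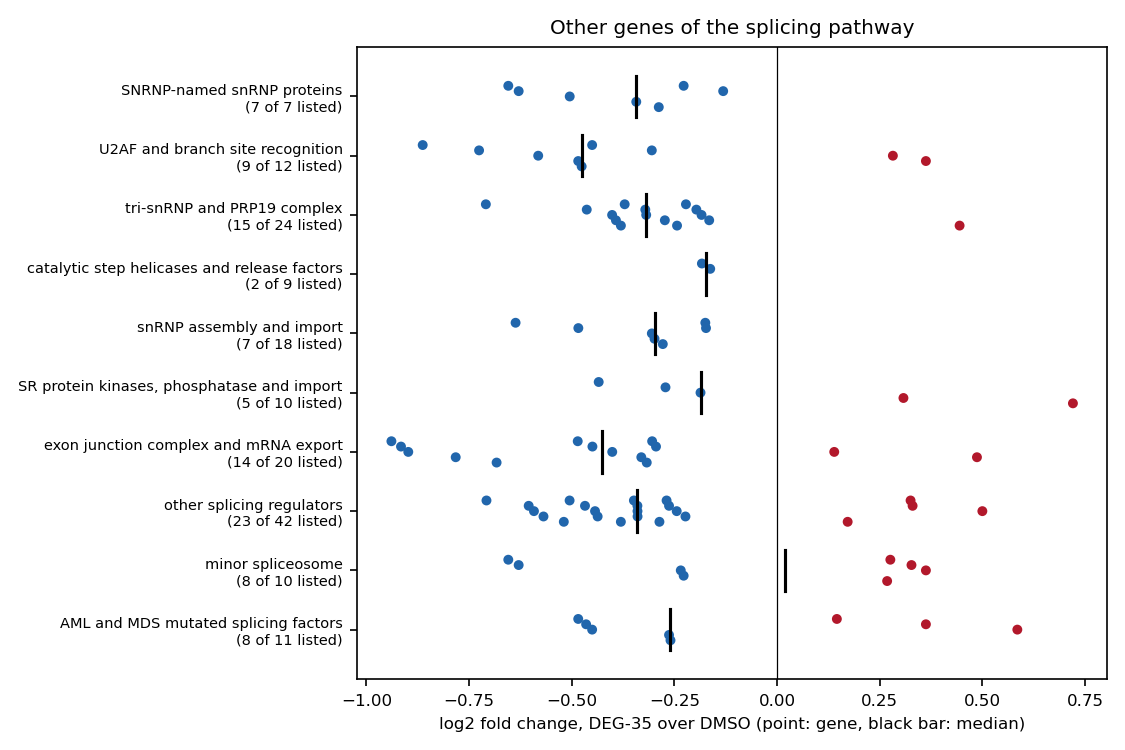
Log2 fold change (horizontal axis, DEG-35 over DMSO) of each listed gene of 10 lists of splicing pathway genes. Points left of 0 are lower with DEG-35 and the black bar is the median, which is below 0 in every list shown except the minor spliceosome (0.02).

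Set beside gene families of other steps of gene expression, the splicing factor genes lay between 2 of them. NUP-named nucleoporin genes had 18 listed members, all lower, with a median of -0.62, and the RPL- and RPS-named ribosomal protein genes 70, of which 68 were higher, with a median of 0.32, in the authors' deposited table. EIF-named translation initiation factor genes were divided, 18 higher and 17 lower. Of all listed genes 52.9% were lower. The share of each of these families that was listed was not counted, and the families were not tested against each other.

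**Figure D4:**
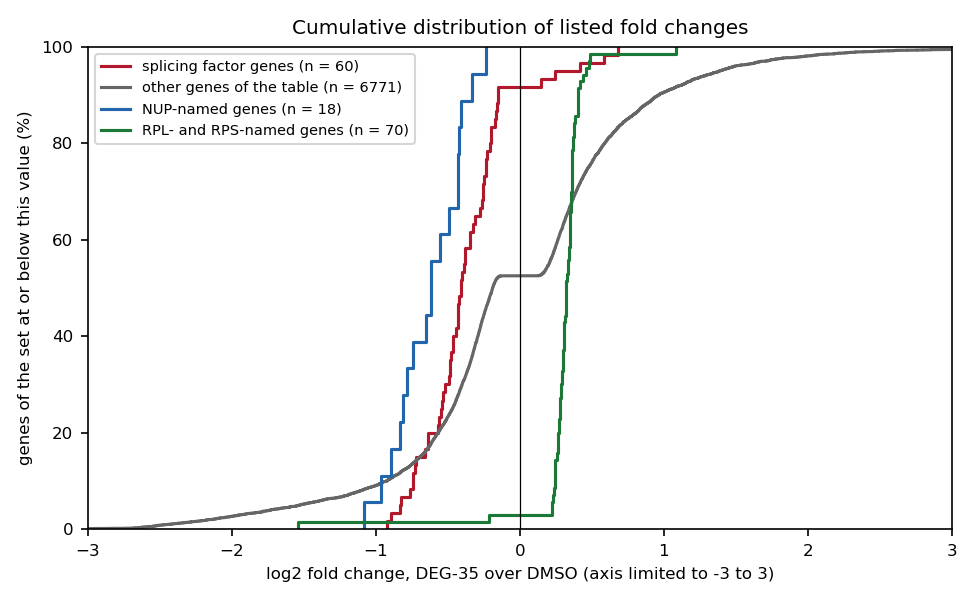
Share of each gene set (vertical axis, %) at or below a log2 fold change (horizontal axis, DEG-35 over DMSO). The curve of the 60 splicing factor genes reaches 91.7% below 0, against 52.5% for the 6771 other listed genes, which extend much further on both sides.

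The identity of the cells could not be checked against expression levels. Of 6 myeloid markers 5 were listed (CD33, FLT3, ITGAM and CSF1R higher, MPO lower) and of 8 markers of other blood cells none. Of all tested genes 45.3% were listed. A listed gene changed with DEG-35, and a marker that is not listed may be unchanged or not tested. The counts therefore do not show which markers the cells express.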

How the data were processed

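RNA of MOLM-13 cells was taken after 24 h with DMSO or DEG-35, with 3 libraries in each group. The submitters' processing notes name STAR, featureCounts, DESeq2 and the build hg19, without versions, options or order. Per the file headers, the deposited values per gene are its log2 fold change, its p-value and its adjusted p-value, and the authors kept adjusted p-values below 0.05. It holds no counts, so depth is unknown and no gene was tested anew. For each of 2789 genes with a p above 1e-04 the adjusted p, its rank and p gave the number of tests, 15064. The implied SE is the absolute log2 fold change over the normal quantile of the two-sided p, assuming a Wald test. The calculation was tested on simulated data made with the same formula. That cannot show whether the deposited values follow it. The members, lists and promoter words were chosen with earlier results of these data known. Named with values were, in each role group, the 4 highest and 4 lowest genes, exceptions to the majority, the smallest adjusted p and 14 genes of interest, and in other lists the 3 smallest adjusted p-values and the leading exception; further genes were named after their values were seen, and some genes that the rule names are not reported here. Alternatives were Bonferroni adjustment, an implied SE of at most 0.2, a shift by 0.3 either way, a stricter adjusted p (0.01), a smallest size of 0.5 or 1 and 3 changes of membership. RefSeq (GRCh38.p14) gave symbols and promoters, and GENCODE release 29 gave transcripts. The tools were Biopython 1.88, Matplotlib 3.10.9, SciPy 1.17.1, pandas 2.3.3, NumPy 2.4.6 and Python 3.11.15.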

Additional observations from a re-analysis of the deposited data

How the results depend on the processing

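Leaving out LSMEM2 and adding the SNRNP-named genes changed no count and no median by more than the limits set. These limits were 1.5 times for counts and the median implied SE for the median. An implied SE of at most 0.2 removed no gene, so its counts and median were unchanged by construction. The largest implied SE was 0.178 among the splicing factor genes (SF3A2) and 0.187 among the other listed splicing genes (SRPK3). A minimum absolute log2 fold change of 1 left 0 splicing factor genes and 0 other splicing genes in either direction, and thus 0 of the 7 role groups mostly lower, by construction. A minimum of 0.5 left 18 lower and 2 higher splicing factor genes with a median of -0.65, and 19 lower and 1 higher of the other splicing genes. Bonferroni adjustment left 2 higher splicing factor genes, a median of -0.49, and 43 lower and 5 higher other splicing genes. An adjusted p below 0.01 left 9 higher other splicing genes. Leaving out the members with a named pseudogene left 23 lower genes and a median of -0.33, with fewer genes by construction. With log2 fold changes shifted up by 0.3 there were 21 higher splicing factor genes, a median of -0.11 and 38 higher other splicing genes, and with a shift down 3, -0.71 and 9. The shift up turned the value of DHX38 to 0.14, DHX8 to 0.12, HNRNPC to 0.094, HNRNPDL to 0.074, HNRNPH1 to 0.10, HNRNPK to 0.023, HNRNPU to 0.13, LSM14A to 0.14, LSM14B to 0.048, LSM7 to 0.066, LSM8 to 0.10, PPP1R8 to 0.028, PRPF31 to 0.065, PRPF38B to 0.13, PRPF4 to 0.051, SF3A1 to 0.040, SNRPD2 to 0.15 and SRSF6 to 0.15. The shift down turned SF3B1 to -0.15 and SF3B6 to -0.055. No paired analysis was possible because the table gives no values per library, and for the same reason leaving out a library and other count models were not run.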

Other observations

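Genes of neighbouring steps of RNA processing were counted by symbol. Of 14 genes named CPSF, CSTF or PAPOL, for cleavage and polyadenylation of pre-mRNA, 6 were listed, all lower, with a median of -0.33. CPSF7 stood at -0.56, CSTF2 at -0.48 and the poly(A) polymerase gene PAPOLA at -0.42 in the authors' deposited table. Of 10 poly(A)-binding protein genes named PABPC or PABPN 2 were listed, both higher. PABPC1 stood at 0.38 and PABPC3 at 0.87 ± 0.336 in the authors' deposited table. Genes named RBM, which share an RNA-binding domain but no common process, were evenly split, with 20 of 51 listed, 10 higher and 10 lower: RBM14 had the lowest value, -0.75, and RBM47 the highest, 0.71, in the authors' deposited table.

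Among genes of mRNA decay (EDC, DCP, XRN and CNOT) 8 of 17 were listed, 6 lower and 2 higher, with the decapping gene DCP1B at 0.91 and CNOT9, listed under its older symbol RQCD1, at -0.60 in the authors' deposited table. Of 10 UPF and SMG genes of nonsense-mediated decay 4 were listed, 3 lower, among them UPF1 at -0.40 in the authors' deposited table. Of 16 Integrator genes, whose complex forms the ends of snRNAs, 6 were listed, 4 lower, with INTS6 at -0.36 and INTS3 at 0.35 in the authors' deposited table. The shares listed in these groups, 39.2% for RBM, 47.1% for decay, 40.0% for UPF and SMG and 37.5% for Integrator, lay near or below the 45.3% of all tested genes. The 42.9% of the cleavage genes and the 20.0% of the PABPC and PABPN genes did as well.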
